A study of Mus musculus with 3 samples.

Results

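Naive T cells marked by Lef1 were examined in single-cell RNA libraries of irradiated mouse lung. Members were chosen by their values: a cell was taken where at least 1 of the CD3 genes Cd3e, Cd3g and Cd3d was above 0, Lef1 was above 0, and none of Ccl5, Nkg7, Ctla4, Icos, Trdc, Cd163l1, Cd79a and C1qa was above 0. This rule found 329 of 19622 cells. There were 117 members among 6372 cells in CONV, 73 among 6983 in CONV AsiDNA and 139 among 6267 in FLASH. The rule reads the measured values, so Lef1, the CD3 genes and the 8 excluded genes describe how the cells were picked and support nothing.

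The lungs came from 3 female C57BL6/J mice, 1 for each condition, whose thorax had received 13 Gy 5 months earlier. The CONV mouse received conventional irradiation, the FLASH mouse ultra-high dose rate irradiation, and the CONV AsiDNA mouse conventional irradiation after AsiDNA, 100 mg/kg on 2 days in a row and then 200 mg/kg on the day of the beam. AsiDNA is a short DNA molecule that acts as a decoy for the cell's break repair proteins. No unirradiated library was used here. Since each condition is 1 mouse, library and condition cannot be told apart and no test between conditions was possible. Intervals beside shares are exact 95% ones (Clopper-Pearson). They reflect only how many cells were sampled, not how mice vary.

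Naive T cells have left the thymus and have not yet met their antigen. They circulate between blood, lymph nodes and tissues, guided by the chemokine receptor Ccr7 and the sphingosine-1-phosphate receptor S1pr1, and Il7r carries a survival signal. Lef1 and Tcf7 are related transcription factors that uphold T cell identity from the thymus onward and are lowered when a T cell becomes an effector. CD8 cells carry the coreceptor made of Cd8a and Cd8b1, and CD4 cells carry Cd4. In GRCm38, the mm10 build, Lef1 lies on chromosome 3 at 131110471 to 131224356 on the plus strand.

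Values are given as the share of cells above 0 and as adjusted CPM, a gene's adjusted counts scaled to a common total over the summed cells. The adjusted count is the whole number behind each deposited value, which is a natural logarithm. Where 3 values stand together they run CONV, CONV AsiDNA, FLASH. Members had median totals of 3385, 3585 and 3523 and medians of 950, 1080 and 974 genes above 0. Mitochondrial genes made up 0.518%, 0.0946% and 1.42% of the members' adjusted counts, and cytosolic ribosomal protein genes 45.7%, 46.6% and 51.8%. Barcodes shared by a pair of libraries numbered 9 to 17, with 0 among the members.

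Most members carried Ccr7, S1pr1 and Il7r, genes of naive, recirculating T cells. However, 18 of the 329 were above 0 for Rag1, Rag2, Dntt or Ptcra, genes used in the thymus while T cell receptor genes are being joined. These 18 are called Rag/Dntt-positive here, and Ccr7, S1pr1 and Il7r were at 0 in all of them. How many other members had all 3 at 0 is not reported here. The split was chosen after their values were seen. CONV held 14 of its 117 members in this set (12%, interval 6.7 to 19.3), FLASH held 4 of 139 (2.88%) and CONV AsiDNA 0 of 73. Among all CD3-positive cells, 36 of 1410, 4 of 986 and 15 of 1222 were above 0 for any of the 4 genes. Without them 103, 73 and 135 members remain. Marker and gene levels below are mostly those of the remaining members, and the counts at the Lef1 threshold include all members.

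Rag1, a subunit of the recombinase, was found in 12 of 14 cells of CONV and 4 of 4 of FLASH. Dntt, which adds nucleotides at the joins, was above 0 in 13 of 14 and 4 of 4. Ccr9, a chemokine receptor of thymocytes and gut-homing cells, was above 0 in 11 of 14 and 4 of 4, against 11 of 103 and 14 of 135 of the remaining members. Satb1, a chromatin organiser of developing T cells, was above 0 in every one of these 18 cells. Satb1 was not particular to them, as it also had the highest summed level of the thymic emigrant and thymocyte list in CONV AsiDNA. That library held none of these cells. Tcf7 was above 0 in 13 of 14 and 4 of 4, and it was frequent in the remaining members too. Ccr7, S1pr1, Il7r, Dapl1 and Igfbp4 were at 0 in 14 of 14 and in 4 of 4. Klf2 was also at 0 in 14 of 14 in CONV and above 0 in 1 of 4 in FLASH. The same genes were frequent in the remaining CONV members, with Il7r in 95 of 103, Ccr7 and Klf2 each in 82 and S1pr1 in 79.

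Cd8b1 was detected in 13 of 14 cells of CONV and 4 of 4 of FLASH, and Cd4 in 7 and 4. Both genes together were above 0 in 7 and 4 of them. Mki67 or Top2a, genes of dividing cells, were above 0 in 7 and 2, compared with 1 of the remaining members in each of the 3 libraries. Hist1h1b, a linker histone made during DNA synthesis, was above 0 in 11 of 14, and Ly6d in 7 of 14 and 2 of 4. Ly6d marks thymic T cell progenitors as well as B cells, and it was at 0 in the remaining members of all 3 libraries. The median total was 3039 in the 14 CONV cells and 3638 in the 4 FLASH cells, compared with 3387 and 3523 in the remaining members. Where these 18 cells came from was not tested.

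**Figure D1:**
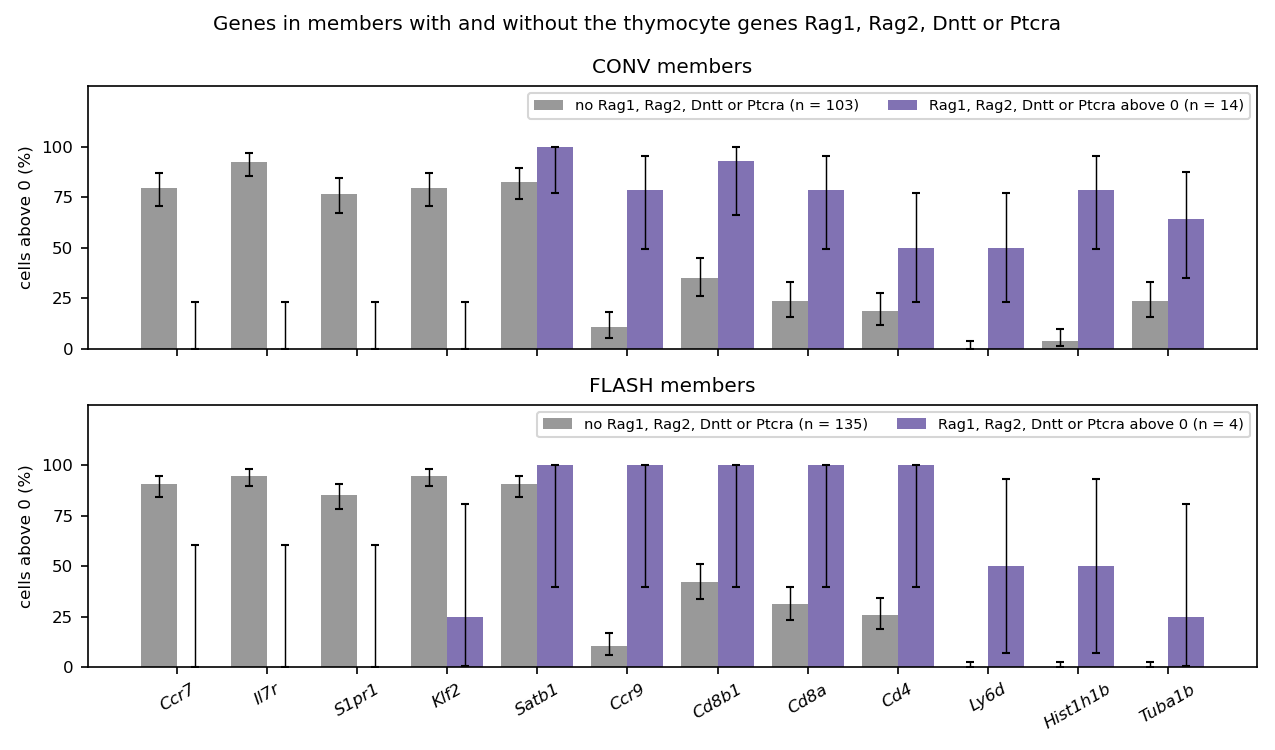
Share of cells above 0 (%, vertical axis) for 12 genes in CONV (top) and FLASH (bottom) members, with Rag1, Rag2, Dntt or Ptcra above 0 (purple) and without (grey); error bars are exact 95% intervals over cells. Ccr7, Il7r and S1pr1 are at 0 in the purple cells of both libraries, while Satb1 is above 0 in every purple cell and Ccr9 in 11 of 14 and 4 of 4.

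The remaining members carried the naive genes in most cells. Tcf7 was above 0 in 72.8%, 87.7% and 91.1% of them. Ccr7 was above 0 in 79.6%, 86.3% and 90.4%, Klf2, a factor that keeps T cells quiescent and recirculating, in 79.6%, 83.6% and 94.8%, and S1pr1 in 76.7%, 78.1% and 85.2%. Il7r was above 0 in 92.2%, 93.2% and 94.8%. Dapl1, a marker given with the label, was above 0 in fewer cells, 43.7%, 31.5% and 38.5%. Among these remaining members every library shows the naive programme, with the lowest shares of Tcf7, Ccr7, Klf2 and S1pr1 in CONV. Leaving out the Rag/Dntt-positive cells, which had Ccr7, S1pr1 and Il7r at 0, raised the shares of those genes in CONV and FLASH. The intervals of CONV and FLASH did not overlap for Tcf7 (63.2 to 81.1 and 85 to 95.3) and Klf2 (70.5 to 86.9 and 89.6 to 97.9), and they overlapped for Ccr7, S1pr1, Il7r and Dapl1.

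Other T cells of the same libraries set the scale. CD3-positive cells with Ccl5 or Nkg7, genes of cytotoxic and effector cells, numbered 543, 456 and 549, and their median totals of 3354, 3582.5 and 3534 were close to those of the members. In these cells Ccr7 was above 0 in 22.7%, 38.4% and 44.1%. Cells with Ctla4 or Icos and neither Ccl5 nor Nkg7, which include regulatory and activated cells, numbered 646, 389 and 461. Among them Ccr7 was above 0 in 17.6%, 23.4% and 26.5%. Igfbp4 was above 0 in 40.8%, 41.1% and 47.4% of the remaining members and in at most 14.2% of either of these sets. Il7r did not separate them, being above 0 in 92.1%, 84.1% and 87.6% of the cells with Ctla4 or Icos.

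Of 38 memory and effector genes, 5, 11 and 6 were above 0 in at least 10% of all members, and 77.8%, 82.2% and 77.7% of members were above 0 for any. S100a10, an annexin partner, was above 0 in 25.2%, 41.1% and 39.3% of the remaining members, Klrd1 in 18.4%, 16.4% and 34.1%, and Crip1 in 11.7%, 16.4% and 12.6%. Other genes of the list were rarer. S100a4, a calcium-binding protein of effector and memory T cells, was above 0 in 7.77%, 9.59% and 4.44% of the remaining members, against 67.5%, 64.3% and 63.3% of the cells with Ctla4 or Icos. Cd44 was above 0 in at most 2.96% and Cxcr3 in at most 4.11%. Gzma, Klrg1, Tbx21, Zeb2, Cx3cr1 and Itga1 were listed at 0 in every member. Cells with Cd79a, a B cell gene, and no CD3 gene show what low values the files give in cells that should lack a gene. In those cells, with median totals of 2830, 2963.5 and 3044, Lef1 was above 0 in 0%, 1.63% and 0.0864%, and Tcf7, Dapl1, Igfbp4, Cd8b1 and Cd4 were at 0 in all 3 libraries. The lists of other cell types were mostly at 0 in the members. Of 15 B cell markers, 10, 13 and 14 were at 0 in every member, of 19 myeloid markers 14, 18 and 18, and of 23 epithelial, endothelial, stromal and erythroid markers 20, 22 and 22. Their summed levels ranged from 28.7 to 106, from 11.7 to 46.4 and from 53.3 to 90.3 adjusted CPM. Any B cell marker was above 0 in 7.69%, 2.74% and 1.44% of members, any myeloid marker in 8.55%, 4.11% and 5.76%, and any of the last list in 23.1%, 15.1% and 14.4%, led by Pecam1, an adhesion protein of endothelium that T cells also carry. Of 22 markers of natural killer, regulatory and innate-like cells, 12, 11 and 14 were at 0, and the summed level was 95.5, 211 and 94.3, highest in CONV AsiDNA, where 21.9% of members were above 0 for any.

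**Figure D2:**
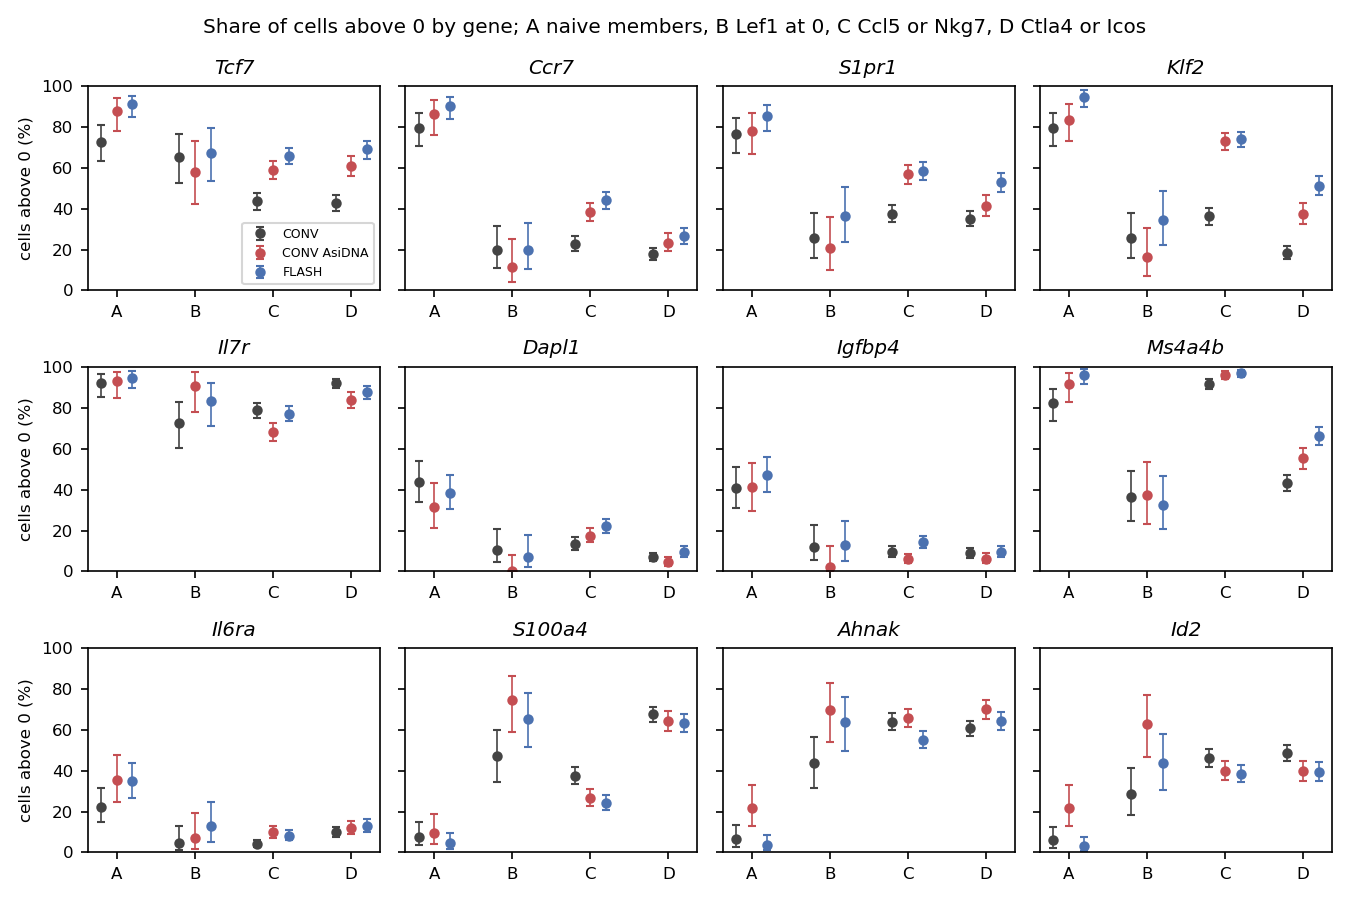
Share of cells above 0 (%, vertical axis) for 12 genes in 4 sets of CD3-positive cells: A, members without Rag1, Rag2, Dntt and Ptcra; B, cells with Lef1 at 0 and none of the 8 excluded genes; C, cells with Ccl5 or Nkg7; D, cells with Ctla4 or Icos. Points are the 3 libraries with exact 95% intervals over cells, and Ccr7 and Igfbp4 are highest and S100a4 lowest in A in every library.

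The cells at the threshold were mixed. Lef1 stood at 1 in 48 of the CONV members, 22 of the CONV AsiDNA members and 34 of the FLASH members, and at 2 or more in 69, 51 and 105. Just outside, 66, 43 and 55 cells met every other condition with Lef1 at 0. In CONV, Ccr7 was above 0 in 13 of 66 cells with Lef1 at 0, 22 of 48 with Lef1 at 1 and 60 of 69 with Lef1 at 2 or more. FLASH gave 11 of 55, 24 of 34 and 98 of 105. S100a4 ran the opposite way, with 31 of 66, 8 of 48 and 0 of 69 in CONV, 32 of 43, 6 of 22 and 1 of 51 in CONV AsiDNA, and 36 of 55, 5 of 34 and 1 of 105 in FLASH. Members with a Lef1 value of 2 or more were thus almost free of S100a4, and those at 1 lay between them and the cells outside.

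The members took a smaller share of the lung cells in CONV AsiDNA than in the other libraries. Their shares of all cells were 1.84% (1.52 to 2.2), 1.05% (0.82 to 1.31) and 2.22% (1.87 to 2.61). The interval of CONV AsiDNA overlapped neither of the others, and those of CONV and FLASH overlapped. As a share of CD3-positive cells the order of CONV and CONV AsiDNA was less clear, with 8.3% (6.91 to 9.86), 7.4% (5.85 to 9.22) and 11.4% (9.65 to 13.3). There only CONV AsiDNA and FLASH had intervals that did not overlap. Without the Rag/Dntt-positive cells the shares of CD3-positive cells were 7.3%, 7.4% and 11%, so that CONV was no longer above CONV AsiDNA, and the interval of CONV (6 to 8.79) no longer overlapped that of FLASH (9.34 to 12.9). Of all cells they were 1.62% (1.32 to 1.96), 1.05% and 2.15% (1.81 to 2.54). Lef1 itself was above 0 in 36.4%, 42.8% and 49.9% of the CD3-positive cells. Most of these Lef1 cells were removed by the excluded genes, since 296 of 513, 231 of 422 and 288 of 610 had Ctla4 or Icos and 219, 237 and 294 had Ccl5 or Nkg7. The members were 22.8%, 17.3% and 22.8% of the CD3 and Lef1 cells.

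**Figure D3:**
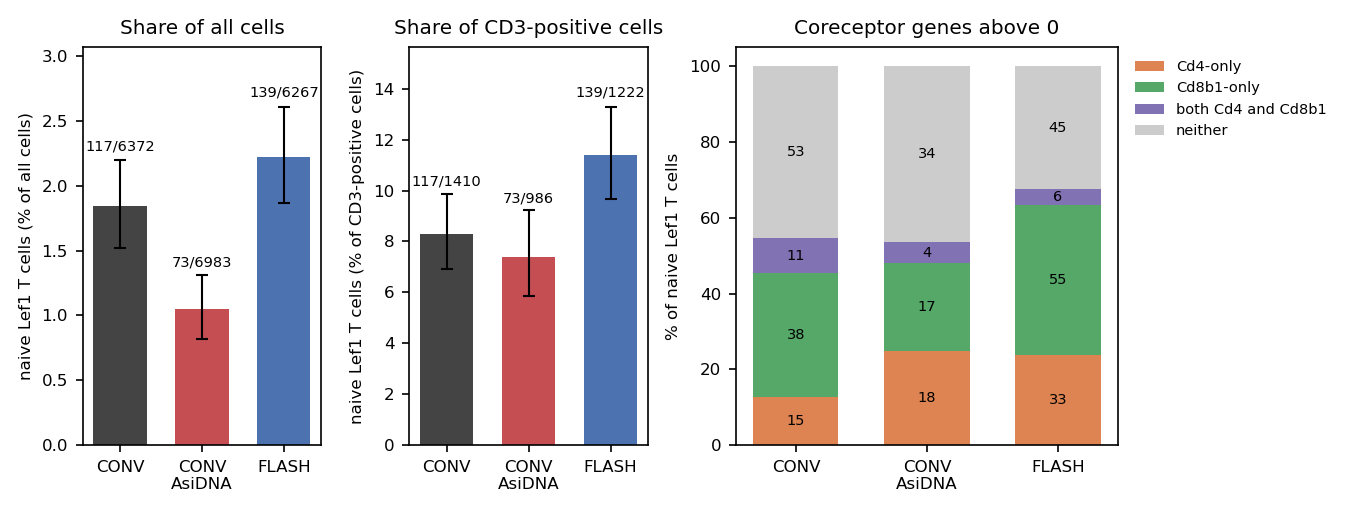
Share of naive Lef1 T cells among all cells and among CD3-positive cells (%, bars with exact 95% intervals over cells, counts above), and the make-up of the members by Cd4 and Cd8b1 (%, counts inside the bars). CONV AsiDNA is lowest among all cells with 73 of 6983, and Cd8b1-only members number 38, 17 and 55.

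Cd8b1 was above 0 in 49 of 117 members in CONV (41.9%), 21 of 73 in CONV AsiDNA (28.8%) and 61 of 139 in FLASH (43.9%). Cd4 was above 0 in 26 (22.2%), 22 (30.1%) and 39 (28.1%). Members with Cd8b1 and without Cd4 were 32.5%, 23.3% and 39.6%, and those with Cd4 and without Cd8b1 were 12.8%, 24.7% and 23.7%. Among cells with exactly 1 of the genes, the Cd8b1-only share was 71.7% in CONV (38 of 53, interval 57.7 to 83.2), 48.6% in CONV AsiDNA (17 of 35, 31.4 to 66) and 62.5% in FLASH (55 of 88, 51.5 to 72.6), and all 3 intervals overlapped. Without the Rag/Dntt-positive cells the CONV share was 68.1% (32 of 47). Both genes were above 0 in 11, 4 and 6 members, and in 4, 4 and 2 without those cells.

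Neither gene was above 0 in 53, 34 and 45 members, a large part of each library. Cd8a, the partner of Cd8b1, was above 0 in 1 of 53, 0 of 34 and 2 of 45 of these cells, so few of them showed a CD8 coreceptor gene. The members held a more even mix of Cd4-only and Cd8b1-only cells than the CD3 and Lef1 cells with Ccl5 or Nkg7. In those, 89.8%, 93.8% and 97.1% of the cells with exactly 1 of the coreceptor genes were Cd8b1-only. The CD3 and Lef1 cells with Ctla4 or Icos gave 58%, 66.9% and 62.9%. Cd4 had lower values than Cd8b1. Among members with Lef1 at 2 or more its mean per cell was 0.232, 0.471 and 0.39, against 1.09, 0.686 and 1.65. How many CD4 cells were missed for this reason was not tested, so these shares are not shares of CD4 and CD8 cells.

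Variable genes of the T cell receptor were spread over many segments. Of 75 Trav genes, 18, 11 and 19 were above 0 in at least 1 member of CONV, CONV AsiDNA and FLASH, and of 23 Trbv genes 15, 11 and 14 were. The most frequent Trav gene was found in 4 of 117, 2 of 73 and 3 of 139 members, and the most frequent Trbv gene in 6, 3 and 6. No single segment dominated in any library. Most members showed no Trav gene (90, 62 and 113) or no Trbv gene (85, 55 and 104), so their receptors are not known from these values.

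Libraries were next compared gene by gene, over 4553 genes whose adjusted counts in the members summed to 20 or more. A gene was called where the log2 ratio of adjusted CPM plus 10 was at least 1 in size, a rule of size and not a test. CONV was at least 2-fold higher than CONV AsiDNA in 6.65% of genes and lower in 5.86%, and relative to FLASH higher in 8.63% and lower in 3.73%. CONV AsiDNA was higher than FLASH in 6.94% and lower in 3.27%. Without the Rag/Dntt-positive cells 4196 genes were left, and the shares were 4.0% and 8.34%, 5.62% and 5.48%, and 7.55% and 2.69%. The median log2 ratio over all genes was -0.01, 0.11 and 0.11 with these cells and -0.09, 0.03 and 0.13 without. A small number of members lies behind each value, and many genes were above 0 in only a few of them.

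Cell cycle genes were the list that moved most with the Rag/Dntt-positive cells. With all members, 11 of 20 genes of the list were at least 2-fold higher in CONV than in CONV AsiDNA and 15 of 20 than in FLASH, beside 6.65% and 8.63% of all genes, with median log2 ratios of 1.19 and 1.17. Without those cells 11 genes of the list were measured, of which 1 and 2 were higher, beside 4.0% and 5.62%. The medians of these fewer genes were 0.33 and 0.64. Among members with Lef1 at 2 or more, 9 were measured, 1 and 0 were higher, beside 6.04% and 7.17%, and the medians were 0.04 and 0.31. The medians of these same 9 genes over all members were 0.29 and 0.79, and the other 11 were too low to be measured there. Stmn1, which loosens microtubules in dividing cells, was at 361, 15.6 and 71.7 adjusted CPM in all members. It was at 87.9, 15.6 and 10.6 without the Rag/Dntt-positive cells. Top2a, which untangles DNA before division, was at 284, 27.4 and 61.5, and without them at 49.8, 27.4 and 0, from 1 cell, 1 cell and none. Tuba1b, Hist1h2ap, Hist1h1b, Mki67, Stmn1, Hist1h2ae and Top2a were 7 of the 8 genes farthest above both other libraries in CONV with all members. With these cells left out, these genes were too low or listed at 0 in FLASH and could not enter that ranking, but several were still higher in CONV. Stmn1 had log2 ratios of 1.93 over CONV AsiDNA and 2.25 over FLASH. Hist1h1b was at 55.7, 3.91 and 0 adjusted CPM and Hist1h2ap at 64.4, 11.7 and 0. Tuba1b, a tubulin, was at 141, 15.6 and 0, with 24 of 103 cells above 0 in CONV and 1 of 73 in CONV AsiDNA.

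**Figure D4:**
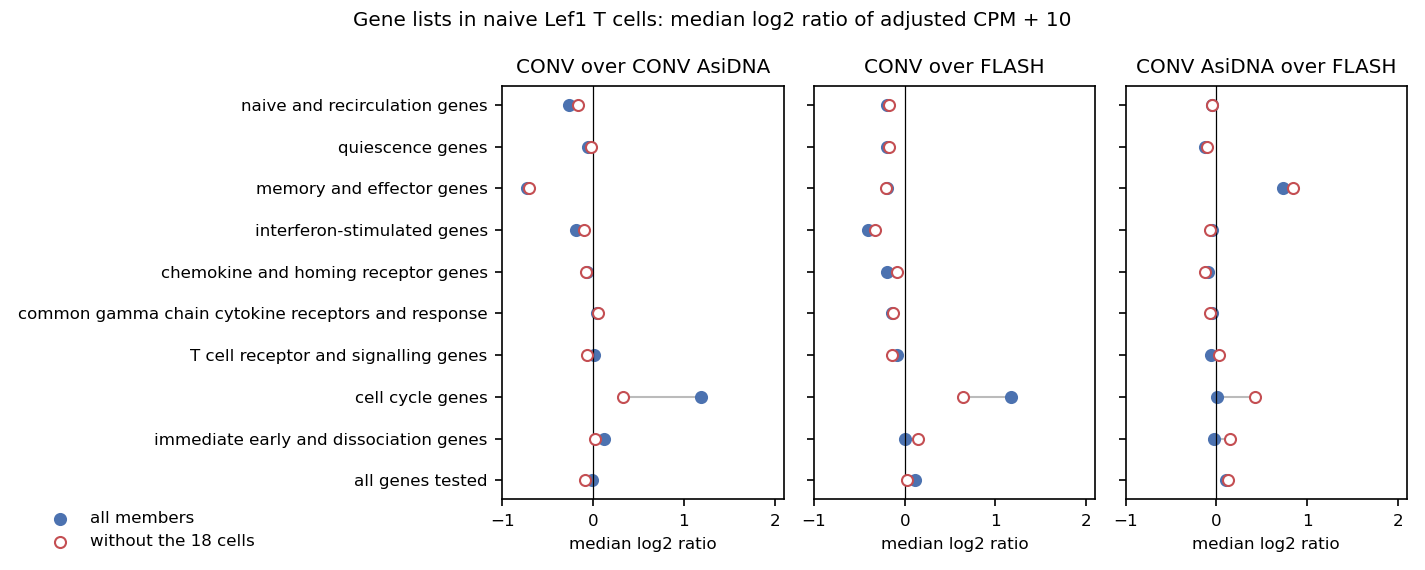
Median log2 ratio of adjusted CPM plus 10 (horizontal axis) of 9 gene lists and of all genes tested, for each pair of libraries, with all members (filled) and without the 18 members above 0 for Rag1, Rag2, Dntt or Ptcra (open). Cell cycle genes shift most, from 1.19 to 0.33 and from 1.17 to 0.64 in the pairs with CONV. Their medians cover 20 genes with all members and 11 without the 18, so the gene set changes as well as the cells. Memory and effector genes are the list farthest above 0 in CONV AsiDNA over FLASH.

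Of 24 naive and recirculation genes measured, 0, 1 and 0 were called in the 3 pairs without the Rag/Dntt-positive cells. Over all genes the shares higher and lower were 4.0% and 8.34%, 5.62% and 5.48%, and 7.55% and 2.69%, so the count says little of the list. Its medians were -0.17, -0.17 and -0.05. The gene called was Actn1, an actin cross-linker, at 96.7, 121 and 226 adjusted CPM, where 24 of 103, 19 of 73 and 63 of 135 cells were above 0. Ms4a4b, a membrane protein of T cells, was at 1248, 2001 and 2018, and Cd27, a costimulatory receptor, at 202, 309 and 312, below 2-fold in each case. Genes of the common gamma chain cytokine receptors had medians of 0.05, -0.13 and -0.07, and 1 of 17 was called, a share near that of all genes. It was Pim1, a kinase induced by cytokines, at 123, 313 and 156 and above 0 in 15.5%, 52.1% and 30.4% of cells.

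With Lef1 at 1 included, memory and effector genes were higher in CONV AsiDNA more often than lower. Of 20 measured, 7 were at least 2-fold higher in CONV AsiDNA than in FLASH and 0 lower, with a median of 0.84. Over all genes the share higher was 7.55%. For CONV over CONV AsiDNA the median was -0.71, with 7 genes lower and 1 higher, beside 8.34% and 4.0% of all genes. Markers of natural killer, regulatory and innate-like cells moved with this list, being above 0 in 14.5%, 21.9% and 5.76% of all members, and their part in it was not tested. Id2, a regulator that favours effector differentiation, was above 0 in 6 of 103, 16 of 73 and 4 of 135 cells, at 32.2, 125 and 12.7 adjusted CPM. Ahnak, a large scaffold protein, was above 0 in 7, 16 and 5 of these cells, at 49.8, 184 and 61.2. The interval of CONV AsiDNA for Id2, 13.1 to 33.1%, lay above those of CONV (2.17 to 12.2%) and FLASH (0.813 to 7.41%). S100a4 was at 117, 313 and 110 but above 0 in only 8, 7 and 6 cells. In CONV AsiDNA 6 of these 7 cells had Lef1 at 1, with a mean of 3.27 adjusted counts per cell there and 0.157 at Lef1 of 2 or more, so this gene's level came from the cells at the threshold. S100a6 was alike, with means of 2.77 and 0.0196. Id2 was not, being above 0 in 0 of 69, 9 of 51 and 1 of 105 members with Lef1 at 2 or more. With Lef1 at 1 it was above 0 in 6 of 48, 7 of 22 and 3 of 34. Among members with Lef1 at 2 or more, 8 genes of the list were measured, 1 was higher in CONV AsiDNA than in FLASH and 1 lower, beside 7.29% and 3.57% of all genes, and the median was -0.46. The median of these same 8 genes over all members was 0.06, and the other 12 were too low to be measured there. For CONV over CONV AsiDNA 1 of the 8 was higher and 2 lower, beside 6.04% and 9.38% of all genes. The median was -0.33, and -0.20 for the same genes over all members. Tox was an exception, at 158, 39.1 and 80.2, lowest in CONV AsiDNA. In cells with Ccl5 or Nkg7 the Ahnak ratio of CONV AsiDNA over FLASH was 0.02 and that of Id2 was -0.16.

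Interferon-stimulated genes were lower in CONV than in FLASH in 4 of 28 measured and higher in 1, and the median was -0.33. Over all genes 5.48% were lower and 5.62% higher in this pair. CONV over CONV AsiDNA gave 0 higher and 2 lower, beside 4.0% and 8.34%, with a median of -0.10. CONV AsiDNA over FLASH gave 1 higher and 0 lower, beside 7.55% and 2.69%, with a median of -0.07. The counts of the pairs with CONV AsiDNA are near or below the shares over all genes. The count lower in CONV than in FLASH lies above its share of 5.48%, and this was not tested. Among members with Lef1 at 2 or more, 25 genes of the list were measured. CONV over FLASH then gave 1 higher and 1 lower, beside 7.17% and 6.25% of all genes. The median was -0.25, and -0.41 for the same genes over all members. Ifi209, Ifi206 and Ifi203 belong to a family of nucleic acid-sensing proteins, and Ifi47 is a guanosine triphosphatase. Ifi209 was above 0 in 13.6%, 23.3% and 39.3% of the remaining members, at 49.8, 66.4 and 135 adjusted CPM. Ifi203 was at 144, 254 and 304, Ifi206 at 38.1, 46.9 and 86.6, and Ifi47 at 96.7, 207 and 228. Ly6a was the gene that was higher, at 41, 39.1 and 8.44, from 3, 3 and 1 cells. Ifi214, outside the list and of the same family, was at 20.5, 39.1 and 95. Another such gene, Ifi208, was lowest in CONV AsiDNA instead, at 73.2, 23.4 and 88.7. CONV was the lowest library for Ifi209 in other cells as well, at 52, 104 and 109 in cells with Ccl5 or Nkg7 and at 87, 180 and 197 in Cd79a cells without CD3.

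Among 9 measured p53 target genes, 2 were higher and 1 lower in CONV than in CONV AsiDNA, beside 4.0% and 8.34% of all genes. Over FLASH 3 were higher and 0 lower, beside 5.62% and 5.48%, and the median log2 ratios were 0.35 and 0.23. The lower gene was Fas, a death receptor, at 26.4, 66.4 and 33.8 adjusted CPM. Bbc3 encodes the cell death protein PUMA and lies on chromosome 7 at 16308393 to 16318205 in GRCm38. It was above 0 in 36 of 103 members of CONV (35%, interval 25.8 to 45), 1 of 73 of CONV AsiDNA (1.37%, 0.0347 to 7.4) and 21 of 135 of FLASH (15.6%, 9.89 to 22.8). No interval of Bbc3 overlapped another. Its levels were 135, 3.91 and 46.4 adjusted CPM. The same order was found in cells with Ccl5 or Nkg7, where Bbc3 was above 0 in 20.4%, 8.11% and 13.3%, and in those with Ctla4 or Icos, at 17.5%, 3.6% and 9.98%. Ddit4, an inhibitor of the growth kinase complex mTORC1, was above 0 in 25.2%, 2.74% and 4.44% of the members. Btg2, which slows proliferation, was at 683, 340 and 302 adjusted CPM. Mdm2 was at 26.4, 23.4 and 21.1, Bax at 52.7, 39.1 and 57, and Cdkn1a, the gene of p21, was at 0 in all the remaining members. The 3 genes called over FLASH were Bbc3, Ddit4 and Btg2, and the other 6 were within 2-fold of FLASH.

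Immediate early and dissociation genes are induced by stimulation and by tissue digestion, and every member was above 0 for at least 1 of the 31. Their summed level was 6012, 5826 and 5343 adjusted CPM in all members. Junb, a subunit of the AP-1 factor, was above 0 in 85.4%, 82.2% and 87.4% of the remaining members, at 1623, 1692 and 1529. Its partners Fos and Jun were found in few cells. Fos was above 0 in 6 of 103, 1 of 73 and 0 of 135 cells, and Jun in 4, 1 and 0. Hsp90aa1, a chaperone, was at 302, 297 and 129 adjusted CPM, with 45.6%, 43.8% and 24.4% of cells above 0. Of 19 genes, 3 and 6 were at least 2-fold higher in CONV than in CONV AsiDNA and FLASH and 1 lower in each pair, beside 4.0% and 5.62% higher and 8.34% and 5.48% lower over all genes. For CONV AsiDNA over FLASH 4 were higher and 0 lower, beside 7.55% and 2.69%, and the medians were 0.02, 0.15 and 0.15 in the 3 pairs. Among members with Lef1 at 2 or more, 13 genes of the list were measured. CONV over CONV AsiDNA then gave 0 higher and 2 lower, beside 6.04% and 9.38% of all genes. CONV over FLASH gave 2 higher and 3 lower, beside 7.17% and 6.25%, and CONV AsiDNA over FLASH gave 0 and 0. Read against the shares without the Rag/Dntt-positive cells, T cell receptor and signalling genes gave 0 higher and 1 lower of 26 in each pair. Quiescence genes gave 0 of 19 called for CONV over CONV AsiDNA 2 higher and 1 lower for CONV over FLASH, and 1 higher for CONV AsiDNA over FLASH.

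Several genes with large gaps between libraries had the same library highest or lowest in other cells. Fkbp5, a cochaperone of the glucocorticoid receptor, was above 0 in 26.2%, 6.85% and 2.96% of the remaining members, and in Cd79a cells without CD3 in 31.6%, 5.26% and 8.38%. The RNA-binding protein Cirbp, raised by mild cold, was at 398, 133 and 177 adjusted CPM, and its relative Rbm3 at 744, 360 and 336. In Cd79a cells without CD3 Cirbp was at 541, 273 and 299 and Rbm3 at 744, 385 and 402. In FLASH, the antioxidant enzyme gene Prdx6 was at 6.33 against 252 in CONV and 211 in CONV AsiDNA, and Lars2, a mitochondrial leucyl-tRNA synthetase, at 8.44 against 193 and 246. In cells with Ccl5 or Nkg7 Prdx6 was at 254, 128 and 3.16 and Lars2 at 256, 240 and 17.4. In Cd79a cells without CD3 Lars2 was at 352, 372 and 0, but Prdx6 was at 53.5, 0 and 0, where CONV AsiDNA was listed at 0 as well as FLASH.

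For further genes the members and other cells are set side by side, as a description with no test of the difference. Cyth4, an exchange factor for small GTPases, was at 5.86, 66.4 and 65.4 in the remaining members and at 132, 157 and 163 in cells with Ccl5 or Nkg7. Laptm5, a lysosomal protein of blood cells, was above 0 in 7.77%, 37% and 54.1%, against 44.9%, 70.6% and 71.2% in those cells. Itm2b was above 0 in 9.71%, 53.4% and 25.9% of the members, and in 37.2%, 54.2% and 36.6% of the cells with Ccl5 or Nkg7. Rps6ka1, a kinase downstream of ERK, was at 23.4, 15.6 and 80.2, with FLASH above the others, and at 41.3, 43.9 and 55.9 in cells with Ccl5 or Nkg7. Slc49a4 was at 87.9, 19.5 and 73.9 in the members and at most 17.2 in the other sets. In all members, Ltb, the gene of lymphotoxin beta, was at 248, 789 and 678 and Cyba, an oxidase subunit, at 10.3, 172 and 77.9, each lowest in CONV. In cells with Ccl5 or Nkg7 CONV was also lowest for both, with Ltb at 456, 616 and 617 and Cyba at 132, 265 and 323. Atp6v0e was at 25.8, 156 and 45.1 in all members, highest in CONV AsiDNA, and at 51.5, 146 and 124 in those cells. Sptbn1, a spectrin, was at 69.7, 106 and 4.1 in all members and at 53.2, 55.8 and 11.6 in those cells, lowest in FLASH in both.

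Some genes were listed at 0 in every member of a library. Gm42418 was at 20522, 18331 and 0 adjusted CPM and AY036118 at 503, 555 and 0, both listed at 0 in FLASH. Both overlap ribosomal RNA sequence. Of the mitochondrial genes, mt-Nd2, mt-Co2, mt-Nd3 and mt-Cytb were listed at 0 in CONV AsiDNA and mt-Co3 in CONV. mt-Co1, a cytochrome oxidase subunit, was at 201, 78.2 and 2418 in all members and mt-Nd5 at 470, 7.82 and 281. These gaps move with the library, and their part in the ratios was not tested.

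Within the same mice, Cd8b1-only members had higher Cd8a, Klrd1 and Fam241a than Cd4-only members and 17 of 80 ribosomal protein genes higher, and lower Tmem64, Rgs2, Actb and Tmsb4x. This was the comparison with a test. The cells of each subset were summed per library, giving 38 and 15 cells in CONV, 17 and 18 in CONV AsiDNA and 55 and 33 in FLASH, and limma was fitted with the mouse as a block over 2815 genes besides Cd8b1 and Cd4, which chose the cells. Rag/Dntt-positive cells were included, and they made up 6 of the 38 Cd8b1-only cells of CONV and none of the other sums. After Benjamini-Hochberg adjustment 24 genes (0.853%) were higher in Cd8b1-only cells and 16 (0.568%) lower, and 399 had an unadjusted p under 0.05. The median log2 difference over all genes was -0.20. The fit without the mouse as a block called 4 and 3, and adding 1 in place of 10 to the CPM left 0 and 1, with 312 at an unadjusted p under 0.05. The calls also rest on the CONV mouse, since without it limma called 0 genes, with 249 at an unadjusted p under 0.05. The 39 of the 40 genes that could be tested without it all kept their direction.

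The genes higher in Cd8b1-only members were mostly of the CD8 lineage or of the ribosome. Cd8a, on chromosome 6 at 71373427 to 71379173 in GRCm38, was at 372, 341 and 284 adjusted CPM in Cd8b1-only cells of CONV, CONV AsiDNA and FLASH and listed at 0 in all Cd4-only cells (limma adjusted p = 3.22e-05). Klrd1, the receptor chain CD94 of CD8 and natural killer cells, was at 223, 325 and 386 against 0, 0 and 35, and Fam241a at 395, 520 and 452 against 0, 15.7 and 61.2 (adjusted p = 0.000147 for each by limma). Ly6c2 was at 89.4, 179 and 178 against 0 in every library, and its limma adjusted p was 0.00756. Cd226, an activating receptor, was at 104, 211 and 147 against 0, 15.7 and 35 (limma adjusted p = 0.00996). Pde2a, a phosphodiesterase, was at 127, 195 and 173 against 40.5, 31.5 and 26.2, a log2 difference of 2.02 ± 0.43 (SE, n = 3 pairs, limma adjusted p = 0.0257). Ly6c2, Cd226 and Pde2a each held in 2 of 9 other settings, against 7 of 9 for Cd8a and 6 of 9 for Klrd1 and Fam241a. Of 9 CD8 lineage genes tested 3 were higher, beside 0.853% of all genes, and Runx3, the factor that sets the CD8 fate, missed the threshold at 1.64 ± 0.44 (SE, limma adjusted p = 0.0856). Klrd1 and Ly6c2 also belong to the memory and effector list. Of 8 genes of that list tested, these 2 were higher and 0 lower, with a median log2 difference of 1.71.

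Of 80 cytosolic ribosomal protein genes tested, 17 were higher in Cd8b1-only members and 0 lower, beside 0.853% and 0.568% of all genes, with a median log2 difference of 0.23. Rplp1 and Rps12 were called in 5 of 9 other settings, with limma adjusted p up to 0.375 and 0.553, and Rps2 in 1 of 9. Rplp1 was at 10894, 12727 and 14491 adjusted CPM against 8026, 7967 and 10498, a difference of 0.53 ± 0.06 (SE, limma adjusted p = 0.000229). Rps12 was at 6590, 7087 and 7370 against 4661, 4613 and 5398. The ribosomal protein share of all adjusted counts was 51.5%, 53.8% and 57.4% in Cd8b1-only cells and 44.9%, 44.1% and 50.1% in Cd4-only cells, higher in each mouse. Without the Rag/Dntt-positive cells it was 56.5% in the Cd8b1-only cells of CONV. Malat1, a nuclear RNA, ran the opposite way at 17380, 19813 and 19257 against 41791, 31522 and 26718, a difference of -0.80 ± 0.10 (SE, limma adjusted p = 0.00019). Whether the ribosomal genes and Malat1 moved through each other's share of the total was not tested.

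**Figure D5:**
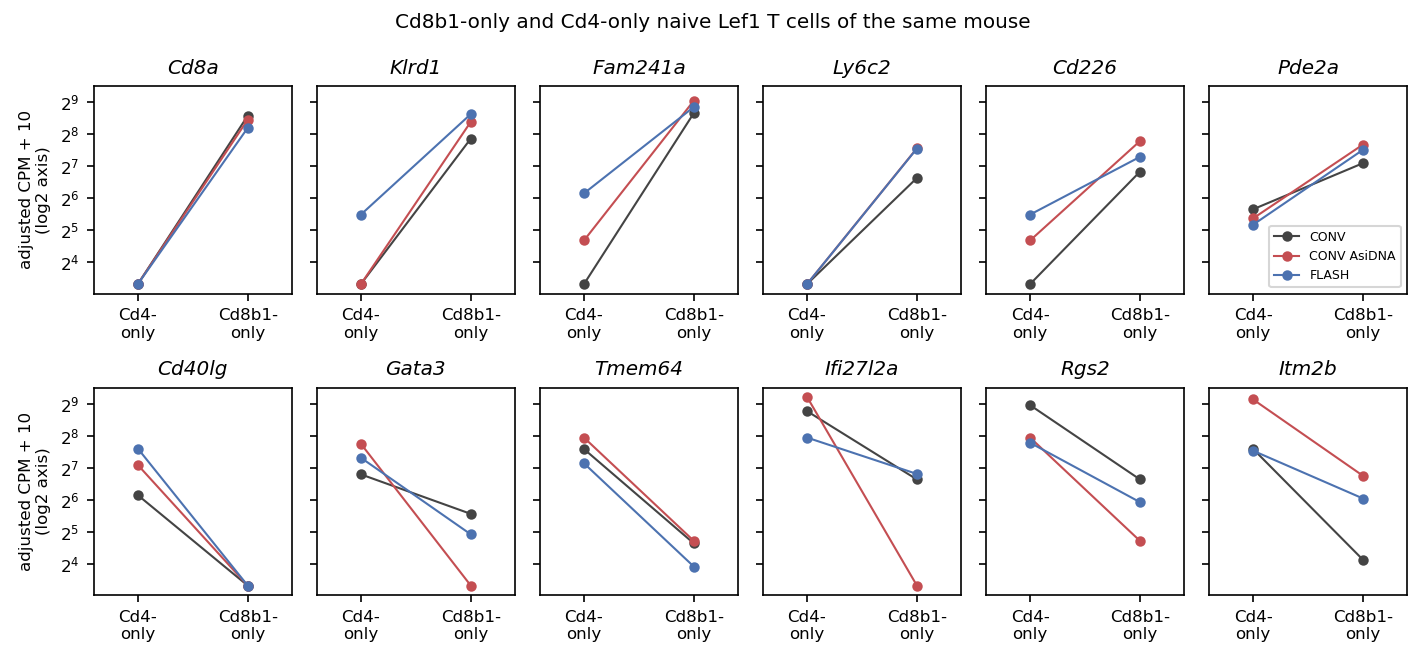
Adjusted CPM plus 10 (log2 axis) of 12 called genes in Cd4-only and Cd8b1-only naive Lef1 T cells, with a line for each mouse. The 6 genes of the top row are higher in Cd8b1-only cells and the 6 of the bottom row lower in every mouse, and Cd8a and Ly6c2 are listed at 0 in all Cd4-only cells.

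Genes higher in the Cd4-only members included those of the CD4 lineage. Cd40lg, the ligand by which helper cells activate B cells, was at 60.8, 126 and 184 adjusted CPM in Cd4-only cells and listed at 0 in Cd8b1-only cells (limma adjusted p = 0.0325). Gata3, a factor of CD4 development, was at 101, 205 and 149 against 37.2, 0 and 20.3, with the same adjusted p of 0.0325 by limma. Of 5 CD4 lineage genes tested, these 2 were called, beside 0.568% of all genes, but Gata3 held in only 1 of 8 other settings (adjusted p up to 0.336 by limma) and Cd40lg in 1 of 6 (up to 0.378). Tmem64 was at 182, 236 and 131 against 14.9, 16.3 and 5.08, a log2 difference of -3.14 ± 0.47 (SE, limma adjusted p = 0.00207). Rgs2, a brake on G protein signals, was at 486, 236 and 210 against 89.4, 16.3 and 50.8 (-2.47 ± 0.39, SE, limma adjusted p = 0.00341). Actb and Tmsb4x, of the actin cytoskeleton, were lower in Cd8b1-only cells, with log2 differences of -1.55 ± 0.20 and -1.01 ± 0.11 (SE, limma adjusted p = 0.000445 and 0.000109). Cdkn1b, the cycle inhibitor p27, was at 588, 362 and 350 in Cd4-only cells against 231, 97.5 and 198, and was called in 2 of 9 other settings (limma adjusted p up to 0.472).

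Of 24 naive genes tested between the subsets 0 passed, beside 0.853% and 0.568% of all genes, with a median of -0.30. Ccr7 was at 864, 1447 and 1330 in Cd8b1-only cells against 709, 945 and 1015, a difference of 0.43 ± 0.17 (SE, limma adjusted p = 0.275). Dapl1 was at 365, 699 and 355 against 324, 205 and 367 (0.61 ± 0.32, limma adjusted p = 0.4). A p above the threshold does not show that these levels are alike. Without the Rag/Dntt-positive cells the counts of calls were 39 higher and 24 lower, and they contained all 24 and 16 of the calls above.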

How the data were processed

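Lung cells of 3 mice were profiled with 10x Genomics 3′ chemistry. The paper names R and Seurat, and the submitters' processing notes list Cell Ranger 6.0.0 and mm10 without their role. The authors deposited natural log values, ln(1 + x) with x whole, for every gene and cell. How x was adjusted is not given in the sources used. Each value was converted back and lay within 1e-06 of a whole number (adjusted count). The totals per cell ranged from 1432 to 8462, and the tables hold 22954 genes. The plan took this form from an earlier reading. Since these are not raw counts, no count model was applied, and genes listed at 0 were given no detection limit. Left unused were 4 further tables. They hold 12 per-sample columns that match no sample here by name, and the authors' fold changes and p-values, by gene. No doublets were removed beyond what the authors did, and leaving out the 6% of cells with the highest totals was an alternative.

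The members and the gene lists were chosen with earlier results of these data known. Genes named were members of these lists, the 8 farthest above and below both other libraries for each library (sum of at least 50, above 0 in all 3), genes listed at 0 in a library and above 0 in at least 25% of another, and the 12 largest called differences each way between subsets. Some others (Fkbp5, Malat1, Tmsb4x, Cdkn1b, Ltb and genes outside these ranks) were named after their values were seen. Pairs of libraries were compared by the log2 ratio of adjusted CPM plus 10 in genes with a sum of at least 20. Cd8b1-only and Cd4-only sums were compared with limma (empirical Bayes with trend, 2 residual and 12.96 prior degrees of freedom), Benjamini-Hochberg over all genes, called under 0.05. The pairing comes from the mouse, as the 2 sums of a library share it. Tested on simulated data (4110 genes), the ratios recovered 200 of 200 genes raised 8-fold in CONV. For the subset comparison over 2407 genes, limma called 40.3%, 86.6% and 100% of genes changed 2-, 4- and 8-fold, and 0.634% of unchanged genes. Values of some list genes are not reported here. Gene positions are from GENCODE for GRCm38. Python 3.11.15, numpy 2.4.6, scipy 1.17.1, pandas 2.3.3, matplotlib 3.10.9, R 4.3.3 and limma 3.58.1 were used.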

Additional observations from a re-analysis of the deposited data

How the results depend on the processing

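Values with no test describe 3 mice, and depth limits genes above 0 in few cells. Settings on Ctla4 and Icos and on Rag1, Rag2, Dntt and Ptcra were chosen after the data were seen. Each trio below runs CONV, CONV AsiDNA, FLASH. The share of CD3-positive cells was 4.89%, 5.17% and 8.59% with Lef1 at 2 or more, 16.1%, 14.3% and 20.3% with the excluded genes allowed at 1, 14.9%, 18.4% and 24.5% with Ccl5 and Nkg7 not excluded, and 19.4%, 18.2% and 24.5% with Ctla4 and Icos not excluded. The share of all cells was 1.08%, 0.73% and 1.68%, then 3.56%, 2.02% and 3.96%, then 3.3%, 2.59% and 4.79%, and 4.3%, 2.56% and 4.79%, in the same order of settings. CONV AsiDNA was lowest among all cells under each of these 4. Cd4-only shares thinned to 1000 per cell were 5.69%, 12.7% and 14.5%. With Ccl5 and Nkg7 allowed, Cd8b1-only shares were 49%, 60.2% and 64.7%, and Cd4-only shares 11.6% in CONV AsiDNA and 11.7% in FLASH. With Ctla4 and Icos allowed, Cd4-only shares were 24.1% in CONV and 33.7% in FLASH, and Cd8b1-only 23% and 29%. Over all settings 36 share values moved and 72 did not, 94 list medians moved and 218 did not, and of single-gene library ratios 165 moved, 4 reversed and 553 did neither.

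Genes at least 2-fold higher and lower numbered 460 and 462 (CONV over CONV AsiDNA), 613 and 307 (CONV over FLASH) and 551 and 299 (CONV AsiDNA over FLASH) with a prior of 1, and 108 and 85, 135 and 58, and 86 and 44 with a minimum sum of 50. Higher calls over FLASH in CONV were 241 with Lef1 at 2 or more. Without the Rag/Dntt-positive members, higher calls in CONV were 168 over CONV AsiDNA and 236 over FLASH. The log2 ratio of CONV AsiDNA over FLASH changed sign for Hist1h1b, to 0.48 with equal numbers of members and 0.48 without those cells, and for Stmn1, to 0.53 and 0.32. The cause was not tested for equal numbers.

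For Cd8b1-only against Cd4-only, the fit with no replicate block called 4 genes higher and 3 lower. A prior of 1 gave 0 and 1 (312 at an unadjusted p under 0.05), a minimum sum of 50 gave 7 lower, equal cell numbers 7 lower, and Cd8b1 or Cd4 at 2 or more 1 and 1. Leaving out a mouse gave 0 to 29 higher and 0 to 24 lower, with 0 and 0 without CONV and 15 higher without FLASH. Without the Rag/Dntt-positive cells 39 were higher. All calls that could be tested kept their direction under these settings, and the cause of the lost calls was not tested.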
